A study of Mus musculus with 16 samples.

Results

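The sarcomere stress-sensor genes examined here are Ankrd1, Ankrd2, Ankrd23, Rrad, Csrp3, Abra, Xirp1, Flnc and Ttn, measured in mouse hamstring muscle 2 days after spinal cord injury and cardiotoxin. Their members are all probes that the array table lists under one of these 9 symbols, which gave 11 of 25697 probes. Of the 9 genes 7 had a probe under its symbol, and Xirp1 and Flnc had 0. All 11 probes passed the detection filter, which kept 14763 probes. The genes were selected on measured values of these data, around the rise of Ankrd1 and Rrad in SCI+Saline over Sham+Saline. That contrast is therefore described below with no test.

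The arrays were Illumina expression BeadChips with 4 arrays in each of 4 groups of female mice. In SCI+CDTX, spinal cord injury (SCI) was joined with cardiotoxin (CDTX) given into the muscle, where this component of snake venom lyses fibres, and SCI+Saline had the same injury with saline. Sham+CDTX and Sham+Saline had sham surgery with CDTX or with saline, and strain and age are not given in the sources used here. The SCI arrays were on 1 slide and the sham arrays on another, so a difference between SCI and sham cannot be told apart from a difference between slides. The study compared these groups because bony growths in muscle, neurogenic heterotopic ossifications, form only after the combined injury, per the series' design text. Whole muscle was homogenised, so fewer cells of a type and less RNA per cell cannot be told apart. The labels name separate samples without saying that each is a separate animal, so p-values measure the spread between these samples.

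The sarcomere is the contractile unit of muscle, bounded by Z-discs and spanned by titin, the giant elastic protein that Ttn encodes. Ankrd1, Ankrd2 and Ankrd23 encode the muscle ankyrin repeat proteins, which bind titin's spring region and can also enter the nucleus, and they are known as genes induced by stretch or injury. Csrp3 encodes muscle LIM protein, a Z-disc protein linked to mechanical sensing, Abra encodes an actin-binding activator of serum response factor, Xirp1 an actin-bundling protein of injured fibres, Flnc the muscle filamin, and Rrad a small GTP-binding protein that inhibits calcium channels.

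Levels are log2 intensities after background correction and quantile normalization, and a value of 1 on this scale is a doubling. A probe is a bead-bound oligonucleotide, and each has its own sensitivity, so levels of different probes are not compared. The fit used 15 arrays, since the authors left SCI+CDTX 2 out of their final table. That array had a median correlation of 0.952 with its own group, against 0.971 to 0.992 for the other 15. Probes with a detection p under 0.05 numbered 11114 to 13694 per array. An array score built from differences between 2 probes of 1 gene (1533 genes, members' genes left out) was 13.6 to 15.8 in Sham+CDTX, 12.5 in SCI+CDTX 2 and -9.6 to -1.3 on the other 11 arrays. A fit of all 16 arrays with that score is given beside member values of a comparison with Sham+CDTX where it changes a call or moves a called value by over 1.5 times.

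The probes are shown first because 3 genes were measured more than 1 time, and how far their probes share sequence decides whether they are separate measurements. Bases 1 to 30 of the 50 are printed, 5′ to 3′, except that the last 30 are printed for the first Csrp3 probe. Capitals mark bases in a run shared with the other probe of the pair.

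Ankrd1 ILMN_2950286: gatgtcgatgtcccaaggtgaaggcaacgt
Ankrd1 ILMN_2625451: cagcctcaaggagaatgcctacaagaactc
Rrad ILMN_1219106: aaggccaaacgctttctgggccgcatcgtg
Csrp3 ILMN_2742068: GGAGGGCTTACACAGCAAGTGGAAAAGAAG
Csrp3 ILMN_2789651: GTTTGGAGGGCTTACACAGCAAGTGGAAAA
Ttn ILMN_2416670: cctGGCCATCCCCTCGTCTAACCAAGCTAT
Ttn ILMN_3128792: GGCCATCCCCTCGTCTAACCAAGCTATGCA

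The Ankrd1 probes share no run longer than 5 bases and read separate stretches of the transcript. Csrp3 ILMN_2742068 and ILMN_2789651 share 34 of 50 bases, and the third Csrp3 probe, ILMN_2789650, shares at most 7 with either. The Ttn probes share 47 of 50 bases, so they are close to 1 measurement made with 2 oligonucleotides. No other probe among the 25697 shared 20 bases with a member probe on either strand. The table lists Ankrd1 on chromosome 19 (band 19qC2), Ankrd2 on chromosome 19 (19qC3), Ankrd23 on chromosome 1 (1qB), Csrp3 on chromosome 7 (7qB4), Abra in band 15qB3.1 and Ttn ILMN_3128792 on chromosome 2 (2qC3). No genome build is named there, so no probe positions are given.

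Ankrd1 was high in every injured group and near background in Sham+Saline. At ILMN_2950286 the log2 levels were 12.67, 12.15, 12.56 and 11.54 in SCI+Saline, 11.26, 11.17 and 11.16 in SCI+CDTX, 9.77, 9.5, 9.66 and 9.72 in Sham+CDTX, and 6.65, 5.38, 6.44 and 6.95 in Sham+Saline. On these 15 arrays the groups did not overlap, and they stood in the order SCI+Saline, SCI+CDTX, Sham+CDTX, Sham+Saline. The second probe, ILMN_2625451, gave 11.6, 11.12, 11.68 and 10.67, then 10.55, 10.34 and 10.05, then 8.5, 8.53, 8.49 and 8.65, and then 5.31, 4.97, 4.62 and 5.36, in the same order of groups. These groups did not overlap either, although the probe was detected on only 3 of 4 Sham+Saline arrays. SCI+CDTX 2, left out here, stood at 11.65 and 11.11 when all 16 arrays were normalized together, above SCI+Saline 4 (11.56 and 10.7), so with it the SCI groups overlapped at both probes. Raw intensities in Sham+Saline were 96.8 to 111.6 at ILMN_2625451 and 101.6 to 169.8 at ILMN_2950286, against 1855.2 to 4102.1 and 3352.5 to 8112.2 in SCI+Saline.

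The contrast that chose the members gave a log2 difference of 5.87 (standard error 0.27) at ILMN_2950286 and 6.21 (0.21) at ILMN_2625451 between SCI+Saline and Sham+Saline. These were the second largest and the largest of the 14763 probes, and Rrad followed at rank 4. The sizes moved with the processing. They ranged from 4.87 with no background correction to 6.66 in the authors' deposited table at ILMN_2950286, and from 4.45 to 7.68 at ILMN_2625451.

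**Figure D1:**
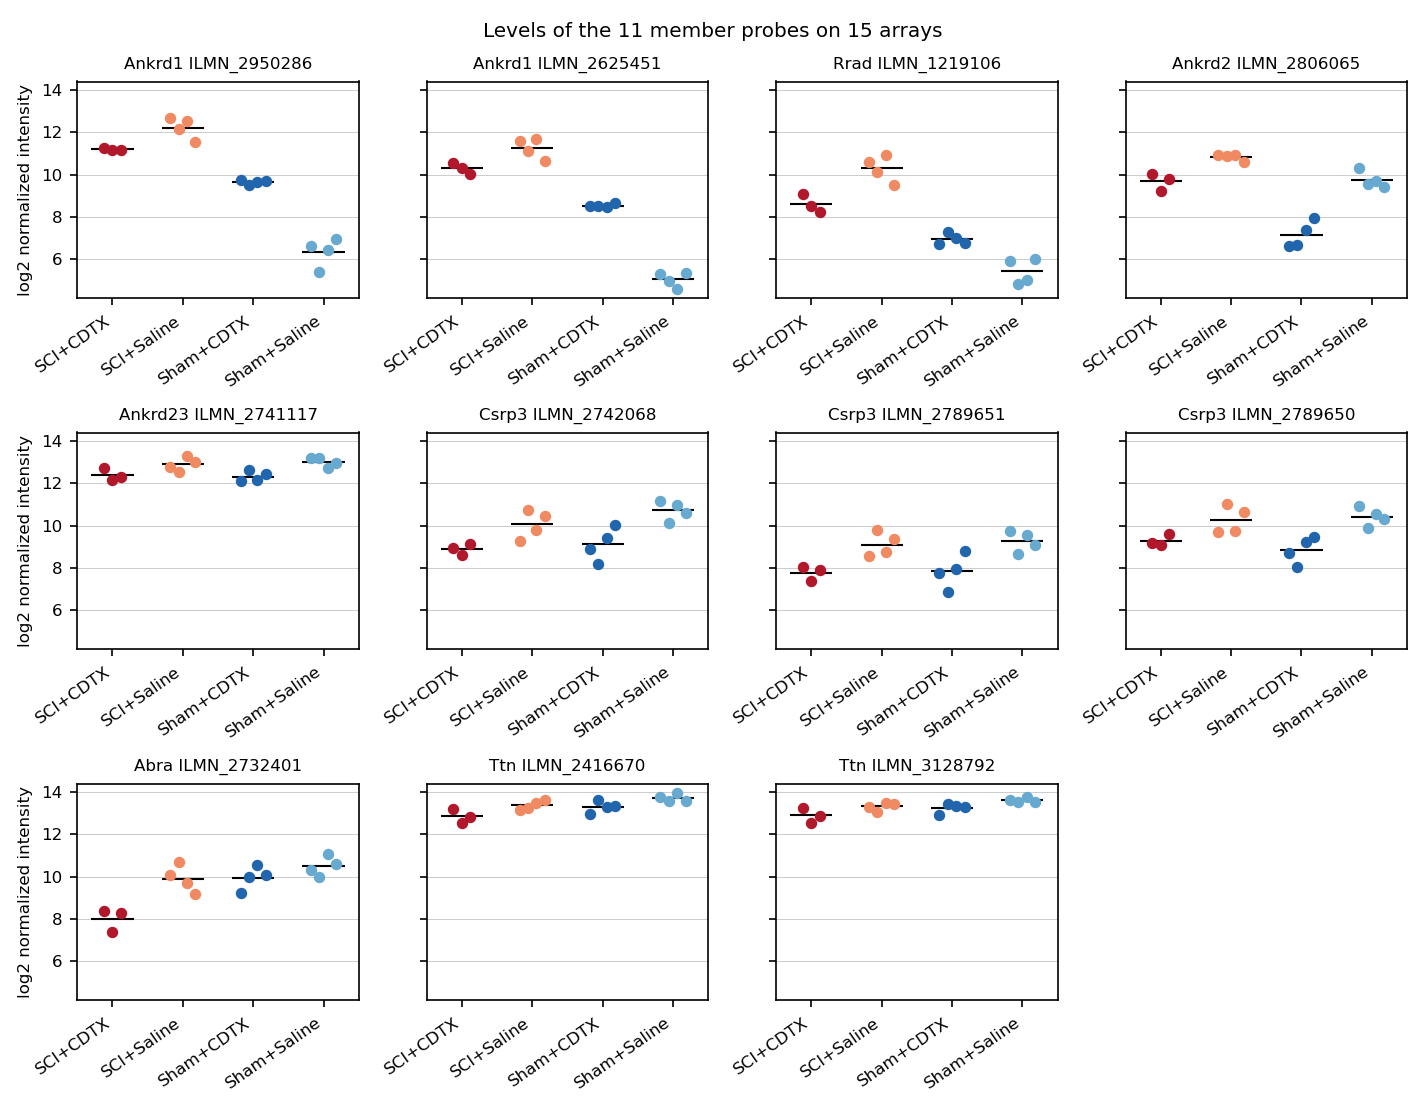
Log2 normalized intensity of the 11 member probes, 1 panel per probe, with 1 point per array, 15 arrays, the 4 groups on the horizontal axis and a black line at each group mean. The Ankrd1 and Rrad panels step down from SCI+Saline to Sham+Saline, Ankrd2 is lowest in Sham+CDTX, Abra is lowest in SCI+CDTX, and Ankrd23 and Ttn stay between 12.11 and 13.94.

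Between SCI+CDTX and Sham+CDTX, a comparison that shares no array with the contrast that chose the members, 4 of the 11 probes were called higher in SCI+CDTX, 1 lower and 6 not (limma, Benjamini-Hochberg adjusted p under 0.05). Of all kept probes 14.9% were called higher and 14.9% lower. The low Ankrd2 in Sham+CDTX and the low Abra in SCI+CDTX were known when the genes were listed. Their calls here are therefore not independent of the listing. The members' median log2 fold change was 0.07, against 0.01 over all kept probes. Ankrd1 was 1.54 higher in SCI+CDTX at ILMN_2950286 (standard error 0.29, limma adjusted p = 0.000519) and 1.78 higher at ILMN_2625451 (0.22, 1.17e-05). With the score in the fit over all 16 arrays, 4 members were again called higher, against 2.21% of all probes, and the Ankrd1 values were 2 (adjusted p = 0.0154) and 2.45 (0.000885).

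CDTX moved Ankrd1 in opposite directions after sham surgery and after SCI. In sham mice it was higher in Sham+CDTX than in Sham+Saline by 3.31 at ILMN_2950286 (standard error 0.27, limma adjusted p = 2.35e-08) and 3.48 at ILMN_2625451 (0.21, 8.95e-10), which are 9.9-fold and 11.1-fold. Without background correction the values were 2.41 (5.31-fold) and 1.95 (3.86-fold), and both were called. In SCI mice it fell by 1.03 (standard error 0.29, adjusted p = 0.00715) and 0.95 (0.22, 0.00194) with CDTX, so that SCI+Saline was 2.04-fold and 1.94-fold above SCI+CDTX. Each of these comparisons shares 4 arrays with the contrast that chose the members, so its direction is not independent of that choice. These calls at both probes were kept with the score in the fit and when any 1 array was left out.

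Rrad followed the same order of groups as Ankrd1. Its levels were 10.58, 10.12, 10.95 and 9.53 in SCI+Saline, 9.11, 8.52 and 8.22 in SCI+CDTX, 6.73, 7.28, 6.99 and 6.77 in Sham+CDTX, and 5.91, 4.82, 5 and 6.01 in Sham+Saline. The groups did not overlap, with or without SCI+CDTX 2 (9.39), and the probe was detected on 3 of 4 Sham+Saline arrays, where raw intensities were 96.4 to 127.5. The difference between SCI+Saline and Sham+Saline, by which the gene was selected, was 4.86 (standard error 0.3), or 3.39 with no background correction.

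Rrad was higher in SCI+CDTX than in Sham+CDTX by 1.67 on the log2 scale (3.19-fold, standard error 0.32, limma adjusted p = 0.000612), or 2.35 (adjusted p = 0.013) with the score. It was lower in SCI+CDTX than in SCI+Saline, with a log2 fold change of -1.68 (standard error 0.32, adjusted p = 0.000357). In sham mice CDTX raised it by 1.5 (standard error 0.3, adjusted p = 0.000341). Without background correction that last value was 0.68 (adjusted p = 0.0275). The call was lost with the score in the fit, where the log2 fold change was 0.9 (adjusted p = 0.255). The comparisons with SCI+Saline and with Sham+Saline share arrays with the contrast that chose the members. Their directions are therefore not independent of that choice.

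Ankrd1 and Rrad varied together over the 15 arrays, with r = 0.95 for either Ankrd1 probe, as a description. After each group's mean was taken off, r was 0.75 and 0.88. Within SCI+Saline, replicate 4 was lowest for Rrad and for both Ankrd1 probes. Among 10944 other genes the levels most like Ankrd1 over these arrays were those of Odc1 (r = 0.982), the polyamine synthesis enzyme, Cdkn1a (0.981), a cell cycle inhibitor, Chrna1 (0.965), a subunit of the muscle acetylcholine receptor, Mt1 (0.964), a metallothionein, and Errfi1 (0.961), an inhibitor of the EGF receptor. For Rrad they were Cpne2 (0.958), Srxn1 (0.957), Krt18 (0.955), Chrna9 (0.95) and Runx1 (0.949). Chrna1 stood at 10.93 in SCI+Saline, 10.63 in SCI+CDTX, 10.02 in Sham+CDTX and 8.59 in Sham+Saline, a range smaller than that of Ankrd1. These arrays share slides and groups, so the values describe likeness of level only.

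**Figure D2:**
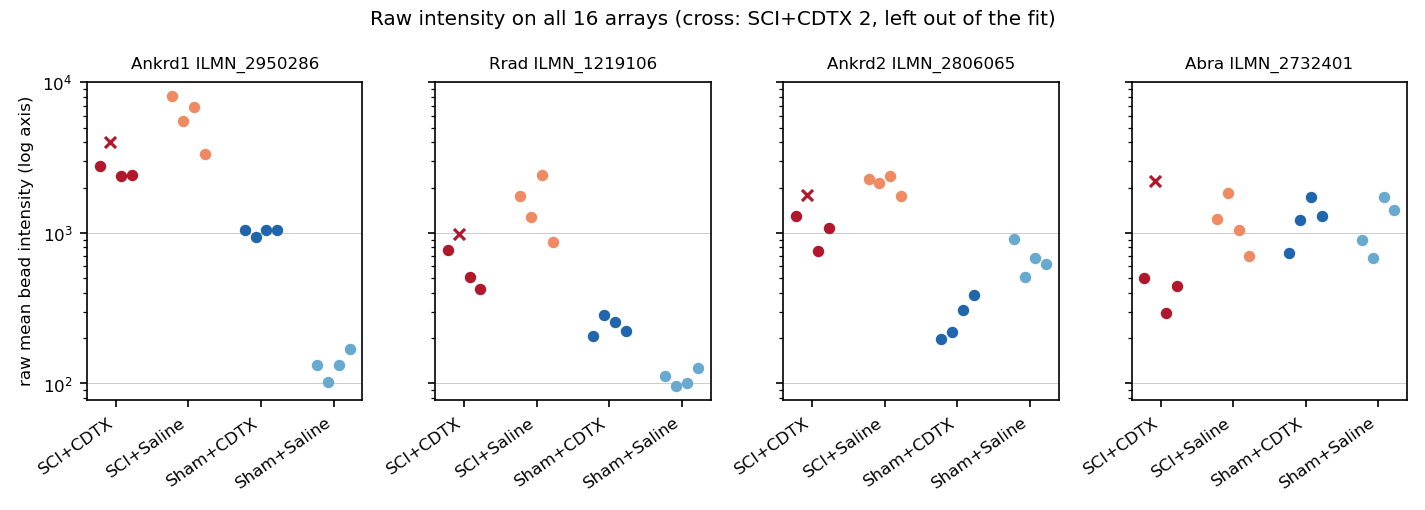
Raw mean bead intensity, before any correction, of Ankrd1, Rrad, Ankrd2 and Abra on all 16 arrays, on a log axis, with 1 point per array and a cross for SCI+CDTX 2. Ankrd1 in Sham+Saline lay at 101.6 to 169.8 against 941.7 or more on every other array, and the cross for Abra, at 2224.1, lay above the 292 to 503.5 of the other SCI+CDTX arrays.

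Ankrd2, the ankyrin repeat protein most abundant in slow muscle, did not follow Ankrd1. Its levels were 10.91, 10.87, 10.94 and 10.6 in SCI+Saline, 10.01, 9.22 and 9.82 in SCI+CDTX, 6.62, 6.68, 7.38 and 7.94 in Sham+CDTX, and 10.33, 9.55, 9.68 and 9.4 in Sham+Saline. The 4 Sham+CDTX arrays lay below all others, and the 4 SCI+Saline arrays above all others. SCI+CDTX and Sham+Saline overlapped.

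In sham mice CDTX lowered Ankrd2 with a log2 fold change of -2.58 (standard error 0.26, limma adjusted p = 2.41e-07), which puts Sham+Saline 5.99-fold above Sham+CDTX. This was the seventh lowest value of all kept probes, and it was known from earlier results of these data when the genes were listed. In SCI mice the log2 fold change with CDTX was -1.15 (standard error 0.28, adjusted p = 0.00281). Ankrd2 was 2.53 higher in SCI+CDTX than in Sham+CDTX (5.77-fold, standard error 0.28, adjusted p = 3.6e-06). With the score in the fit these 3 values were -3.18 (adjusted p = 0.00018), -1.04 (0.00378) and 3.18 (0.000524). The difference between SCI+Saline and Sham+Saline was 1.09 (standard error 0.26), not tested. Over the 15 arrays Ankrd2 correlated with Ankrd1 at r = 0.24 to 0.25 and with Rrad at 0.48.

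The promoters of Ankrd1 and Ankrd2 are shown because the genes encode related proteins and CDTX moved them in opposite directions in sham muscle. RefSeq promoters on GRCm38.p6 were given for 6 of the 9 genes. The 250 bases before the start of Ankrd1 (chr19:36119845-36120094, minus strand) and of Ankrd2 (chr19:42035777-42036026, plus strand) read as follows, with capitals for matches other than E-boxes.

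Ankrd1: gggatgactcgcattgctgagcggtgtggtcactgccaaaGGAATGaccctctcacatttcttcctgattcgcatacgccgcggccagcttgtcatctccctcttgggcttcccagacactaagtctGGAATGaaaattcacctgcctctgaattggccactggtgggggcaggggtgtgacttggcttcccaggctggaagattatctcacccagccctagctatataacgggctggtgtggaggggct
Ankrd2: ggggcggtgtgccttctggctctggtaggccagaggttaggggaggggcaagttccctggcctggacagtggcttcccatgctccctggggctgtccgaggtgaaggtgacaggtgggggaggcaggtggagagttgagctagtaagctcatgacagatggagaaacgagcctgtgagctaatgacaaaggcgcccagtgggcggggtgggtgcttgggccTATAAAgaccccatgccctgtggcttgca

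Both strands were searched for CATTCC (the MCAT element of TEAD factors), TATAAA (a form of the TATA box) and the AP-1 motif TGANTCA. The E-box CANNTG, and the CArG box and MEF2 motif by name, were also searched, with overlapping matches allowed. The Ankrd1 window held CATTCC on the opposite strand (capitals) beginning 210 and 123 bases before the start, and 1 E-box at 111. The Ankrd2 window held TATAAA at 29 and E-boxes at 140, 127 and 96. The Ankrd1 window lacked the exact letters TATAAA but holds tatataa near its end, which was not among the letters searched. Of 32851 RefSeq promoter windows of this length, 12.6% held CATTCC, 12.4% TATAAA and 66.2% an E-box. The AP-1, CArG and MEF2 letters, present in 6.75%, 1.47% and 2.92% of windows, were in neither sequence.

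Ankrd23, the third ankyrin repeat gene, was lower with CDTX in sham muscle. Its levels were 12.77, 12.56, 13.29 and 12.99 in SCI+Saline, 12.71, 12.17 and 12.3 in SCI+CDTX, 12.11, 12.62, 12.14 and 12.43 in Sham+CDTX, and 13.18, 13.22, 12.72 and 12.95 in Sham+Saline. The 4 Sham+CDTX arrays lay below the 4 Sham+Saline arrays, and the other groups overlapped their neighbours. Its log2 fold change with CDTX in sham mice was -0.7 (standard error 0.18, limma adjusted p = 0.00356), a call kept without any 1 array, and -1.05 (adjusted p = 0.0359) with the score. In SCI mice it was -0.51 (0.19, 0.0421), a call lost with all 16 arrays (-0.35, 0.197), with the score (-0.39, 0.125) and without any of SCI+CDTX 3 or 4, SCI+Saline 3 or 4, or Sham+CDTX 4 (highest adjusted p 0.185). Median scaling gave a larger fall, -0.85 (0.000829). Between SCI+CDTX and Sham+CDTX the value was 0.07 (0.19, 0.841), or 0.52 (0.46) with the score.

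Csrp3, which encodes muscle LIM protein, was lower with CDTX in both surgeries at all 3 probes. At ILMN_2742068 levels were 9.29, 10.76, 9.78 and 10.46 in SCI+Saline, 8.95, 8.6 and 9.15 in SCI+CDTX, 8.91, 8.19, 9.43 and 10.03 in Sham+CDTX, and 11.17, 10.14, 10.97 and 10.62 in Sham+Saline. SCI+CDTX lay below SCI+Saline and Sham+CDTX below Sham+Saline, each with no overlap on these arrays, although SCI+CDTX 2, at 9.6, lay above SCI+Saline 1 (9.33) when all 16 were normalized together. The other 2 probes correlated with it at r = 0.93 and 0.97.

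In sham mice the log2 fold changes of Csrp3 with CDTX were -1.58 at ILMN_2742068, -1.56 at ILMN_2789650 and -1.42 at ILMN_2789651 (standard errors 0.34, 0.31 and 0.34, limma adjusted p = 0.000769, 0.000429 and 0.00193). Median scaling took the last to -0.76 (adjusted p = 0.0761), and the score took them to -2.3, -2.08 and -2.58, all called. In SCI mice they were -1.17, -1 and -1.33 (standard errors 0.37, 0.34 and 0.37, adjusted p = 0.0148, 0.023 and 0.00667). The first and second of these were lost when SCI+CDTX 3 (-1.03 and -0.91) or SCI+Saline 2 (-0.94 and -0.74) was left out, and the second also without SCI+CDTX 1 (-0.95) or SCI+Saline 4 (-0.88). In the authors' deposited table the ratios of group means were -1.19, -1.06 and -1.2 on the log2 scale, and its own difference p-values were 0.0882, 0.164 and 0.0595. Between SCI+CDTX and Sham+CDTX the values were -0.24, 0.42 and -0.07, none called (adjusted p 0.407 to 0.922). SCI+Saline minus Sham+Saline gave -0.65, -0.14 and -0.16, not tested, and the latter pair became positive after median scaling (0.37 and 0.33).

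Abra, the actin-binding activator of serum response factor, was lowest in SCI+CDTX. Its levels were 8.36, 7.41 and 8.28 there, 10.08, 10.68, 9.7 and 9.17 in SCI+Saline, 9.21, 9.97, 10.53 and 10.07 in Sham+CDTX, and 10.31, 9.99, 11.05 and 10.59 in Sham+Saline. The 3 SCI+CDTX arrays lay below all 12 others, and the other groups overlapped. SCI+CDTX 2, left out of that fit, stood at 10.69 when all 16 arrays were normalized together.

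The log2 fold change of Abra in SCI+CDTX was -1.92 against Sham+CDTX (standard error 0.34, limma adjusted p = 0.000313) and -1.89 against SCI+Saline (0.34, 0.000224). This low level was known from earlier results of these data when the genes were listed. With all 16 arrays neither was called (-1.26, adjusted p = 0.0866, and -1.22, 0.062). With the score in the fit the first turned to 1.11 (adjusted p = 0.159) and the second stayed at -1.53 (0.000101). The effect of CDTX in sham mice was -0.54 (0.32, 0.168), or -3.43 (7.45e-05) with the score. In these fits SCI+CDTX 2 is the single SCI array with a score near that of Sham+CDTX. Genes most like Abra over the 15 arrays were Fh1 (r = 0.97), Oma1 (0.958), Eloc (0.954), Mef2c (0.954) and Sec15l1 (0.952). Mef2c, a muscle transcription factor, stood at 8 in SCI+CDTX against 9.85 to 10.16 in the other groups.

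**Figure D3:**
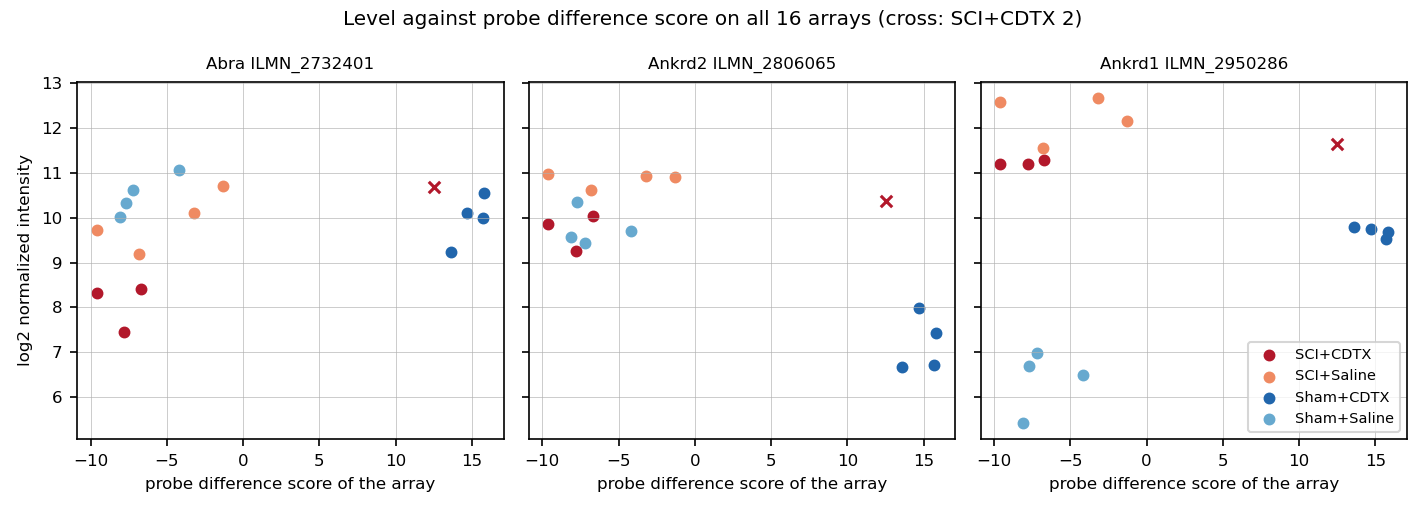
Log2 normalized intensity of Abra, Ankrd2 and Ankrd1 (vertical) against the probe difference score of each array (horizontal, no unit), with 1 point per array, 16 arrays coloured by group, and a cross for SCI+CDTX 2. Abra on SCI+CDTX 2 (score 12.5, level 10.69) sits with Sham+CDTX, whereas Ankrd2 on that array (10.37) lies above all Sham+CDTX arrays.

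Ttn was lowest in SCI+CDTX and highest in Sham+Saline, with group means of 12.85 and 13.71 at ILMN_2416670. At ILMN_2416670 the levels were 13.13, 13.27, 13.49 and 13.64 in SCI+Saline, 13.18, 12.55 and 12.81 in SCI+CDTX, 12.95, 13.61, 13.31 and 13.32 in Sham+CDTX, and 13.77, 13.56, 13.94 and 13.56 in Sham+Saline. The SCI+CDTX arrays overlapped SCI+Saline and Sham+CDTX, and lay below all 4 Sham+Saline arrays. ILMN_2416670 minus ILMN_3128792, which shares most of its sequence, was -0.16 to 0.2 on the log2 scale.

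The log2 fold change of Ttn between SCI+CDTX and SCI+Saline was -0.54 at ILMN_2416670 (standard error 0.19, limma adjusted p = 0.0251) and -0.43 at ILMN_3128792 (0.17, 0.0527), so only the first was called, while median scaling called both (-0.83, 0.000913, and -0.73, 0.00244). That call was lost with all 16 arrays (-0.42, 0.082) and without SCI+CDTX 3 (-0.39, 0.158) or 4 (-0.52, 0.0706) or SCI+Saline 3 (-0.51, 0.0554) or 4 (-0.46, 0.0647). The second was called without SCI+CDTX 1 (-0.61, 0.0128), among other settings. With CDTX in sham mice the values were -0.41 (0.0553) and -0.36 (0.0729), neither called. There median scaling called the first (-0.44, 0.029), and the score the second (-0.82, 0.0494). Between the CDTX groups they were -0.45 (0.076) and -0.36 (0.138), neither called. After median scaling this pair was called (-0.58, adjusted p = 0.018, and -0.53, 0.0296), and with the score in the fit they were 0 and 0.16.

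One probe of Xirp1, listed on this array under the older symbol Cmya1 and placed by its Entrez identifier, lies outside the rule. Its levels were 8.02, 7.85, 8.01 and 8.63 in SCI+Saline, 8.06, 7.38 and 7.89 in SCI+CDTX, 8.63, 8.38, 8.38 and 9.21 in Sham+CDTX, and 9.52, 8.93, 8.48 and 8.6 in Sham+Saline. On these arrays SCI+CDTX lay below Sham+CDTX with no overlap (log2 fold change -0.87, limma adjusted p = 0.0157). SCI+CDTX 2 stood at 9.33 when all 16 arrays were normalized together, above every Sham+CDTX array, and with it the value was -0.49 (adjusted p = 0.335), or 0.45 (0.713) with the score. SCI+Saline minus Sham+Saline was -0.75, and those groups overlapped. That value is given with no p-value, since Xirp1 is among the genes listed around this contrast. The probe was not called for CDTX after SCI (-0.35, 0.298) or after sham surgery (-0.23, 0.446).

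Over the 11 member probes, the effect of CDTX was downward after SCI and mixed after sham surgery. In SCI mice 0 probes were called higher and 10 lower, where 20.4% of all kept probes were called higher and 22.5% lower. On the 15 arrays the groups did not overlap at 8 of the 11 probes, against 45.9% of all kept probes. With SCI+CDTX 2 included, 3 of the 11 did not overlap. The share over all kept probes was not computed with that array, so this drop cannot be read as particular to the members. The 11 probes stand for 7 genes, and some probes of Csrp3 and Ttn share sequence. The members' median was -1.03, against -0.05 over all kept probes. In sham mice 3 probes were called higher (Ankrd1 at both probes and Rrad) and 5 lower (Ankrd2, Ankrd23 and the 3 Csrp3 probes), where 23.1% were called higher and 25.8% lower over all. The members' median there was -0.54 against -0.04. With the score in the fit 2 were higher and 7 lower in sham mice, where 15.4% of all probes were called higher and 15.2% lower. In saline muscle, SCI gave 4 positive and 7 negative differences with a median of -0.14, against -0.01 over all kept probes. Median scaling turned this to 7 positive and 4 negative, with a median of 0.33 against 0.17. No member was tested in this contrast, where 14.8% of all kept probes were called higher and 14.6% lower. Counts with SCI+Saline or Sham+Saline follow in part from how the members were chosen. The CDTX effect in SCI mice minus that in sham mice was -4.34 and -4.43 for Ankrd1, -3.19 for Rrad, 1.44 for Ankrd2 and -1.35 for Abra, described with no test since it contains the contrast that chose the members.

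**Figure D4:**
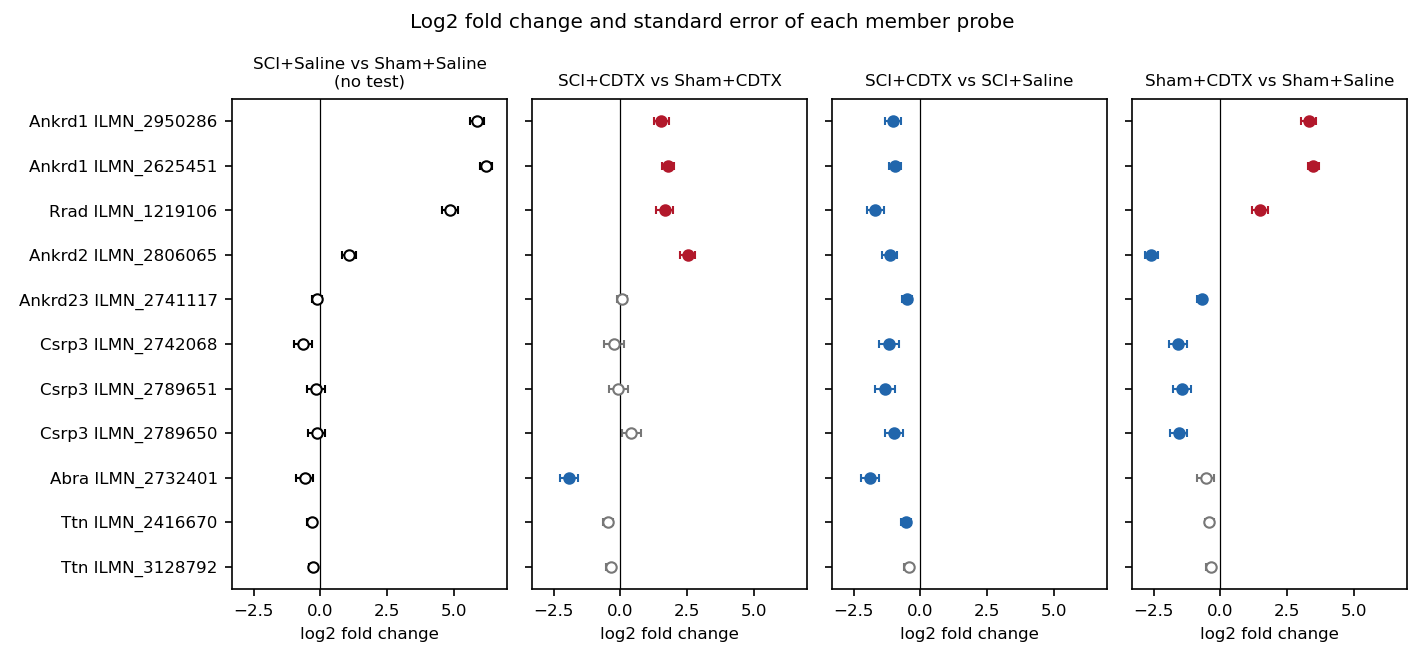
Log2 fold change (points) and standard error (bars) of the 11 member probes in 4 comparisons, 1 panel each, with filled points for probes called at a limma adjusted p under 0.05 (red higher, blue lower), open points for those not called, and the contrast that chose the members shown open with no test. SCI+Saline vs Sham+Saline runs from -0.65 to 6.21, and in SCI+CDTX vs SCI+Saline all 11 points lie below 0.

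Other genes of the Z-disc and titin complex, 29 kept of 33 on the array, were lower rather than higher with CDTX. Over all kept probes, CDTX gave 20.4% called higher and 22.5% lower in SCI mice, and 23.1% and 25.8% in sham mice. SCI in saline muscle gave 14.8% and 14.6%, and SCI+CDTX against Sham+CDTX 14.9% and 14.9%. These shares stand beside each list and marker count below. In SCI mice 2 of the 29 genes were called higher and 17 lower (limma), with a median log2 fold change of -0.75. The lowest were Myoz2 (-1.6), a calcineurin-binding Z-disc protein, Ldb3 (-1.57), the Z-disc scaffold ZASP, and Trim63 (-1.5), a ubiquitin ligase of muscle atrophy, while Pdlim7 (0.98) and Fhl1 (0.75) rose. In sham mice 1 was higher, Cryab (0.47), a small heat shock protein that binds desmin and titin, and 15 were lower, led by Myoz2 (-2.5), Pdlim5 (-2.11) and Myot (-1.81). After median scaling the sham counts became 6 higher and 9 lower, where that scaling moved the median of all probes to 0.32.

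With SCI in saline muscle 4 of these 29 genes were higher and 13 lower. Trim63 (1.25), Cryab (1.16) and Fhl2 (0.9), a LIM protein that binds titin, rose, and Synpo2 (-1.6), Palld (-1.48) and Fhl1 (-1.39) fell. This balance turned over with median scaling, to 10 higher and 6 lower. Between the CDTX groups 6 were higher in SCI+CDTX, led by Trim54 (1.18), Cryab (0.95) and Trim63 (0.94), and 11 lower, led by Palld (-2.38), Myom1 (-1.77) and Myoz1 (-1.62). With the score in the fit 2 were higher and 0 lower, and with all 16 arrays 5 and 6.

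Genes of serum response factor and YAP signalling, pathways that respond to actin and stretch, moved the other way with CDTX after SCI. Of 27 kept genes of 33 on the array, 15 were called higher and 4 lower in SCI+CDTX than in SCI+Saline (median 0.63). Axl (2.34), a receptor kinase, Zyx (2.12), a focal adhesion protein, and Fos (2.07) led, and Vgll2 (-1.49), Wwtr1 (-1.22) and Actc1 (-1.2) were lowest. In sham mice CDTX gave 9 higher and 4 lower, with Tpm4 (2.09), Junb (1.93) and Tead2 (1.76) highest and Srf itself lowest (-1.02), followed by Vgll2 (-0.75) and Acta2 (-0.62). Median scaling changed these counts to 13 higher and 1 lower, with the median going from 0.02 to 0.51.

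With SCI in saline muscle, where Ankrd1 rose, 4 of these 27 genes were higher and 8 lower. Of all kept probes 14.8% were called higher and 14.6% lower in that contrast. Junb (1.97), an AP-1 subunit, Tead4 (1.51), a partner of YAP, and Wwtr1 (1.11), which encodes TAZ, rose. Srf (-1.53), Egr1 (-1.21) and Actc1 (-1.11) fell. Median scaling changed these counts to 6 higher and 5 lower. Between the CDTX groups 6 were higher in SCI+CDTX, led by Egr1 (0.82), Zyx (0.77) and Junb (0.67), and 5 lower, led by Actc1 (-1.86), Vgll2 (-1.59) and Tead2 (-0.91), or 2 and 1 with the score. In the fit without the score, 14.9% of all kept probes were called higher and 14.9% lower.

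Relatives of the members, 5 kept of 7 on the array, were not called with SCI in saline muscle (0 of 5). With CDTX after SCI 4 were higher and 0 lower: Flna (1.84), the non-muscle filamin, Csrp2 (1.73) and Csrp1 (1.05), which encode LIM proteins related to that of Csrp3, and Rem1 (0.59), a relative of Rrad. Csrp1 and Csrp2 thus rose where Csrp3 fell. In sham mice Flna (1.49), Csrp1 (0.78) and Csrp2 (0.66) rose and Rem1 (-0.39) fell with CDTX. The counts there were 2 higher and 0 lower with all 16 arrays, 4 and 0 with median scaling, and 3 and 0 with the score. The call of Rem1 as lower was thus lost in each. Between the CDTX groups Rem1 (1.04) and Csrp2 (0.85) were higher in SCI+CDTX, and 0 were called with the score.

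Markers of muscle fibres fitted the labelled tissue, as all 17 on the array were detected on 16 of 16 arrays. Their summed linear level was 181530 to 201889 in SCI+CDTX, 183008 to 209621 in SCI+Saline, 193561 to 215877 in Sham+CDTX and 218533 to 233806 in Sham+Saline. With CDTX 0 of 17 were called higher and 4 lower in SCI mice, and 2 higher and 4 lower in sham mice, while median scaling gave 7 lower in each. Slow fibre genes, 7 in all, fell in 6 cases with CDTX in either surgery, with medians of -1.46 and -1.68, and their sum was 3862 to 4635 in SCI+CDTX against 8652 to 20448 in SCI+Saline. All 10 macrophage markers rose with CDTX in either surgery, and their sum was 13937 to 21069 in SCI+CDTX and 18056 to 21363 in Sham+CDTX against 933 to 4750 in SCI+Saline and 1079 to 2128 in Sham+Saline. Of 5 kept genes on the muscle precursor list, Myog (3.34), Chrng (3.05) and Myod1 (2.62) were higher and Myh8 (-1.2) lower with SCI in saline muscle. Pax7 and Myf5 of that list were detected on 0 arrays, and the number of precursor cells was not measured. The part of these shifts in the members' values was not tested.

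Smooth muscle and pericyte markers (8 kept) were called higher in 2 and lower in 1 with CDTX after SCI, and in 1 and 3 after sham surgery, where median scaling gave 1 and 0 and the score 0 and 2. Fibroblast markers (8 kept) were higher in 6 with CDTX in either surgery and lower in 0. In sham mice that count was 1 higher with the score and 8 with median scaling. Endothelial markers (7 kept) were higher in 3 with CDTX after SCI (5 with median scaling, 1 with all 16 arrays). After sham surgery 0 were higher and 5 lower, against 2 and 3 with median scaling and 0 and 2 with the score. Neutrophil markers (5 kept) were higher in 2 with CDTX in either surgery. With SCI in saline muscle, where Ankrd1 and Rrad rose, 3 of 10 macrophage and 1 of 5 neutrophil markers were higher and 0 lower. There 4 of 8 fibroblast, 6 of 7 endothelial and 3 of 8 smooth muscle markers were lower and 0 higher. Median scaling changed these to 7 macrophage markers higher, and to 1 fibroblast, 0 endothelial and 3 smooth muscle markers lower.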

How the data were processed

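Whole hamstring muscle RNA was extracted with Trizol and labelled as biotinylated cRNA, per the labels' protocols, and read with GenomeStudio 2011.1, per the submitters' processing notes. The authors deposited a non-normalized table of mean bead intensity, bead count, bead standard error and detection p-value per probe and array, per the file headers, and a final table of group mean intensity and difference p-value against SCI+CDTX, made without SCI+CDTX 2, with average normalization per the file headers. Deposited ratios were taken from those means. No column of per-sample values was left unmapped (0 columns).

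From the non-normalized intensities, limma 3.58.1 (R 4.3.3) neqc corrected background with an offset of 16, quantile-normalized the arrays and took log2. Probes with a detection p-value under 0.05 on at least 3 arrays were kept. A linear model with 4 group means was fitted to 15 arrays, with empirical Bayes and Benjamini-Hochberg adjustment over 14763 probes, and called at an adjusted p under 0.05. Precision is limited by the number of arrays, and member probes had 20 to 53 beads per array. The pipeline was tested on simulated data.

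The members and gene lists were chosen with earlier results of these data known. Named genes are all members, up to 3 called genes per list, comparison and direction with the largest change, and the 5 genes most correlated with Ankrd1, Rrad and Abra. Alternatives were all 16 arrays, array weights, the score, median scaling, no background correction, other filters, trended robust variances, a replicate block, compared groups only, the authors' final table and leaving out each array. The list counts and Xirp1 values under other settings, and group overlap with all 16 arrays, were chosen after seeing the data.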

Additional observations from a re-analysis of the deposited data

Results flagged for a closer look

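CDTX moved 3 member probes in opposite directions in the 2 surgeries, with no overlap between the CDTX and saline arrays in either, on the 15 arrays used. Of all kept probes, 45.9% did not overlap in SCI mice and 45% in sham mice. With SCI+CDTX 2 added, both Ankrd1 probes overlapped in SCI mice (ILMN_2625451 11.11 on that array against 10.7 on SCI+Saline 4, and ILMN_2950286 11.65 against 11.56), and Rrad did not (9.39 against 9.56). The CDTX effect in SCI mice minus that in sham mice was -4.43 at Ankrd1 ILMN_2625451, -4.34 at Ankrd1 ILMN_2950286 and -3.19 at Rrad ILMN_1219106, on the log2 scale. The difference itself was not tested, because it contains the contrast by which the genes were selected. Within groups of 4 arrays, 0 of 44 sets of member values held an array past Dixon's critical value, where chance gives about 1 in 20.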

How the results depend on the processing

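The count of member probes called was 5 between the CDTX groups, 10 for CDTX after SCI and 8 for CDTX after sham surgery. Of all kept probes 29.8%, 42.9% and 48.9% were called in these comparisons. Leaving out 1 array gave 5 to 7, 6 to 11 and 8 to 9, with the 6 reached without SCI+CDTX 3. Over all kept probes the leave-outs called 3192 to 4572, 4719 to 6662 and 6473 to 7387. The 4719 was also reached without SCI+CDTX 3, against 6338 in the main fit. The authors' final table, by its own difference p-values, gave 6 for CDTX after SCI, and its share over all probes was not computed. Ankrd1, Ankrd2 and Rrad kept their calls between the CDTX groups and for CDTX after SCI in 11 of 11 alternatives and 15 of 15 leave-outs. The labels' replicate numbers showed no clear pairing of the arrays. After each group's mean was taken off, same-numbered arrays correlated at -0.27 to 0.38. Among arrays of other groups, 3 of 15 arrays had their highest correlation with an array of their own number. With a replicate block the counts were 5, 8 and 8, where 4034, 5842 and 7073 of all 14763 kept probes were called. Ankrd23 (adjusted p = 0.0813) and Ttn ILMN_2416670 (0.051) then lost their calls for CDTX after SCI.

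The selecting contrast, SCI+Saline against Sham+Saline, gave Ankrd1 ILMN_2950286 6.6 with median scaling, 4.87 without background correction and 6.66 in the authors' final table. Ankrd1 ILMN_2625451 gave 4.45 and 7.68, and Rrad 3.39 and 5.93, in the latter pair of settings. Leave-outs gave 5.54 to 6.1, 6.04 to 6.4 and 4.62 to 5.11. The cause was not tested.

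Between the CDTX groups some directions turned, and of these probes only Abra had been called. With the score, Abra was 1.11, Csrp3 ILMN_2742068 0.52, Csrp3 ILMN_2789651 1.15, and Ttn 0 and 0.16. With all 16 arrays Csrp3 ILMN_2789651 was 0.2, and with median scaling Ankrd23 was -0.06. Leave-outs gave Ankrd23 -0.09 to 0.18, Csrp3 ILMN_2789651 -0.41 to 0.26 and Csrp3 ILMN_2742068 -0.56 to 0.05. The cause was not tested. Probes called in that comparison numbered 4393, against 2613 with 16 arrays and 501 with the score. Median scaling moved the median of all probes to 0.32 for CDTX in sham mice and 0.17 for SCI in saline muscle, and the share of calls that were higher from 47.3% to 85.1% and from 50.3% to 86.4%. For CDTX after SCI that share went from 47.6% to 64.9%.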
